A study of Homo sapiens with 6 samples.

Results

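Potassium channel subunit genes were taken from the gene count table by biotype and symbol, as protein-coding genes named KCN, then letters, then a number. The rule used no measured value and found 96 of the 58735 genes in the table. By symbol, 40 code for pore-forming (alpha) subunits of voltage-gated channels, 13 for accessory subunits of voltage-gated channels, 12 for calcium- or sodium-activated channels and their accessory subunits, 16 for inward rectifiers and 15 for two-pore channels. The study compared UE7T-9 cells, a human mesenchymal stem cell line from bone marrow, with UE7T-9 cells in which SRRM4, a neuronal splicing factor, was targeted with lentiviral CRISPR. The 3 control libraries came from wild-type UE7T-9 cells without the knockout, and the 3 SRRM4 KO libraries (KO 1 to KO 3) from the UE7T-9 SRRM4 KO line. Both were grown in DMEM. The KO line is 1 clone, obtained by diluting puromycin-selected cells to 1 per well, and the study states that loss of the SRRM4 protein was not complete. A difference between the groups can therefore not be told apart from a difference between this clone and its parent cells. Nor can it be told apart from effects of lentiviral transduction or puromycin selection, where the control cells did not go through them.

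Libraries held 21496117 to 23868323 counts each, so 3 counts, the limit that a count of 0 allows, stood for 0.123 to 0.139 CPM, the count scaled to a fixed library total after TMM adjustment. It is a limit for counting error alone. SRRM4 had 0 counts in all 6 libraries, so these counts give no check of the knockout. Control 1 had more genes with a count, 22403, against 20127 to 20674 in the other libraries. The labels do not say whether the 3 libraries of a group came from separate cultures, so p-values measure only the spread between these libraries, which may be technical. Of the mesenchymal markers, NT5E, ENG and VIM were not called, while THY1, PDGFRB and CXCL12 were called lower in the KO line (3 of 6). The neuronal marker STMN2 had no counts. Summed marker levels in control and KO were 20.1 to 21.5 and 17.9 to 20.9 CPM for blood, 25.9 to 33.2 and 23.3 to 27.0 CPM for neurons, and 76.5 to 90.8 and 88.0 to 89.4 CPM for epithelium. Endothelial markers summed to at most 2.18 CPM in a library. Markers of cardiac muscle summed to at most 0.783 CPM in a library. The summed level of 5 smooth muscle markers (ACTA2, CNN1, MYH11, DES and MYOCD) was 962 to 1190 CPM in control and 146 to 157 CPM in the KO line, and none of the 5 was at 0 in every library. Since RNA was taken from bulk cultures, fewer cells of a type and less RNA per cell cannot be told apart.

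Potassium channels let potassium ions leave or enter the cell along their electrochemical gradient, and in most cells they hold the membrane potential negative. Voltage-gated channels open on depolarization, calcium-activated channels also respond to calcium inside the cell, inward rectifiers pass current more easily into the cell than out of it, and two-pore channels carry background currents. In mesenchymal stem cells of bone marrow, large-conductance calcium-activated (BK) currents are among those commonly recorded. Most pore-forming subunits assemble as tetramers, and accessory or electrically silent subunits alter the gating, location or current of the channel they join.

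The pore loop of these channels carries the selectivity signature, glycine-tyrosine-glycine or a close relative. Coding sequences of GENCODE release 29 were searched for codons of threonine or serine, any residue, glycine, then tyrosine, phenylalanine or leucine, then glycine. Of the 96 genes, 79 held the pattern and 17 did not, and outside these genes 5.65% of 19409 protein-coding genes held it. The 17 without it were the 13 accessory subunits of voltage-gated channels and the 4 KCNMB genes, the accessory subunits of the BK channel. Among the 15 two-pore genes, 12 held 2 matches, 2 held 1 and 1 held 3. The windows below come from channels whose RNA differed between the groups, and they show how alike these pores are in sequence. Each is the coding strand from 8 codons before the match to 5 codons after it, in GRCh38, with the 15 bases of the match in capitals.
KCNH7, chr2:162435244-162435297, minus strand: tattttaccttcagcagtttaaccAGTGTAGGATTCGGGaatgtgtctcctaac
KCNS1, chr20:45095161-45095214, minus strand: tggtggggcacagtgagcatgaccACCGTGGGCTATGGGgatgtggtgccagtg
KCNS3, chr2:17932092-17932145, plus strand: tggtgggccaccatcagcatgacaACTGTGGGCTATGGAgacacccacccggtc
KCNN4, chr19:43772042-43772095, minus strand: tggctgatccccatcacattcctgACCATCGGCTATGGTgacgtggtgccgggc
KCNJ3, chr2:154699178-154699231, plus strand: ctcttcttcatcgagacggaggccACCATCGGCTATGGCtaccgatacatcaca
KCNJ6, chr21:37714674-37714727, minus strand: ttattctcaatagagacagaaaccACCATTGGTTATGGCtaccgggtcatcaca
KCNJ12, chr17:21415745-21415798, plus strand: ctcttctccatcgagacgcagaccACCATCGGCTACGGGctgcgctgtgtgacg
KCNK15, chr20:44750416-44750469, plus strand: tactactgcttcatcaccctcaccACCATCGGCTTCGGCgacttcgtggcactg

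Of the 96 genes, 26 had no count in any library, 37 had counts but fell under the filter on low counts, and 33 were tested. A gene was called when its adjusted p was under 0.05 and its log2 fold change beyond 1 (quasi-likelihood test of edgeR on 15341 genes, with Benjamini-Hochberg adjusted p-values). KCNS1, KCNQ3, KCNS3, KCNN4, KCNJ12, KCNJ6 and KCNU1 were called higher in SRRM4 KO cells, 7 of the 33 or 21.2%, where 5.45% of all tested genes were called higher. Again 7 or 21.2% were called lower, among them KCNMB1, KCNH7, KCNE4, KCNJ3, KCNK15 and KCND1, where 7.14% of all tested genes were called lower. Without the threshold on fold change, 8 were higher and 12 lower at an adjusted p under 0.05, against 20.7% and 20.9% of all tested genes. The groups of 3 libraries did not overlap in CPM for 24 of the 33, against 51.8% of all tested genes. The median log2 fold change was -0.01 over the 33 genes and -0.01 over all tested genes. These counts describe a list chosen with earlier results of these data known, and its difference from other genes was not tested.

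**Figure D1:**
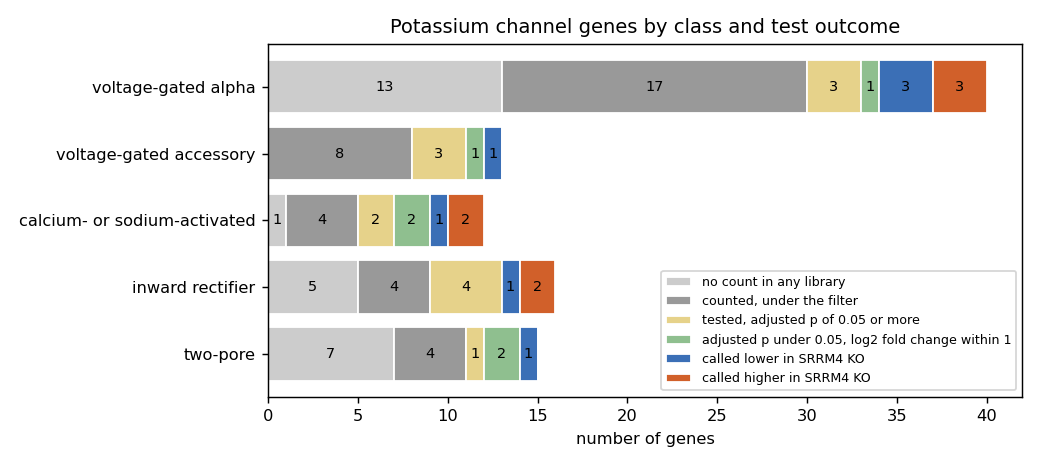
Number of potassium channel genes in each class (horizontal axis), split by whether they had counts, passed the filter and passed the test. Voltage-gated alpha subunits hold 13 genes with no count and 17 under the filter out of 40, and each of the 5 classes holds 1 to 6 called genes.

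**Figure D2:**
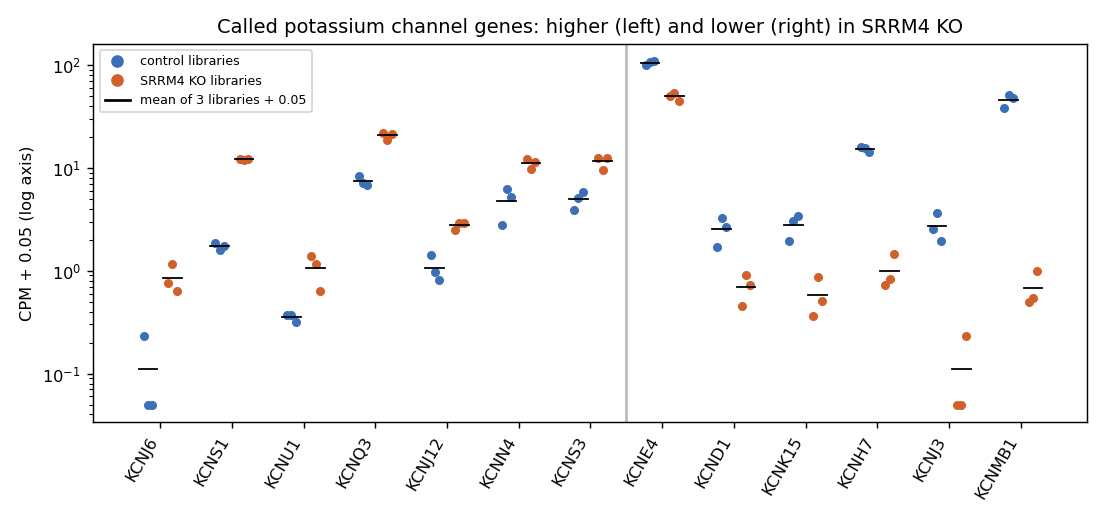
Level of 13 of the 14 called genes in each library as CPM + 0.05 on a log axis, with control libraries and SRRM4 KO libraries side by side and a line at the mean of 3 libraries. The 7 genes on the left were called higher and the 6 on the right lower in the KO line, and in none of the 13 do the groups overlap.

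Among voltage-gated alpha subunits, 10 of 40 were tested, 3 were called higher and 3 lower, with a median log2 fold change of -0.34. Their summed level was 64.0 to 70.9 CPM in control and 71.1 to 77.3 CPM in the KO line. The sums lay close to each other while single genes moved in opposite directions.

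KCNH7 codes for erg3, a channel of the ether-a-go-go related family known mainly from neurons. KCNH7 (ENSG00000184611, chromosome 2, 162371407 to 162838730, minus strand) had 345, 335 and 319 counts in the control libraries and 15, 19 and 31 in the KO libraries. Every KO library lay far under every control library. Its level was 15.2 ± 0.846 CPM in control and 0.953 ± 0.397 CPM in the KO line (SD, n = 3 each), a log2 fold change of -4.00 (standard error, SE, 0.236, adjusted p = 4.49e-09, edgeR). Of its exon bases, 3.80% are shared with GCA on the opposite strand, which had 405 counts in control, against 543 in the KO line. Per kilobase of exon, KCNH7 was the voltage-gated alpha subunit of highest level in control, at 3.06 CPM, and fell to 0.192 CPM. KCNH1, the ether-a-go-go channel EAG1, had 145, 123 and 133 counts in control, against 91, 85 and 89 in the KO line, with no overlap and a log2 fold change of -0.66 (adjusted p = 0.0139, edgeR). Its adjusted p rose to 0.0537 in 1 of the 6 fits that left out a library. KCNH2, KCNH4, KCNH5, KCNH6 and KCNH8 had no counts.

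The electrically silent subunits KCNS1 and KCNS3 both rose. They code for Kv9.1 and Kv9.3, which form no channel of their own and change the gating of the channels they join. KCNS1 had 39, 33 and 38 counts in control, against 269, 289 and 268 in the KO line, rising from 1.68 ± 0.136 to 12.0 ± 0.159 CPM (SD, n = 3 each). The KO libraries lay within a narrow range far over control, and the log2 fold change was 2.84 (SE 0.188, adjusted p = 1.52e-08, edgeR). KCNS3 had 84, 109 and 128 counts in control, against 277, 233 and 276 in the KO line, again with no overlap. Its log2 fold change was 1.23 (SE 0.190, adjusted p = 9.16e-05, edgeR). Per kilobase of exon, KCNS1 went from 0.369 to 2.65 CPM and KCNS3 from 1.56 to 3.67 CPM. In the windows printed above, KCNS1 and KCNS3 share 38 of 54 bases. KCNS1 and KCNK15 lie on chromosome 20, where KCNS1 rose and KCNK15 fell. The median log2 fold change of tested genes within 2 Mb was -0.03 around KCNS1 and -0.03 around KCNK15. KCNK15 ends at base 44752313 and KCNS1 starts at 45092310, so these windows share most of their span.

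KCNQ3 and KCNQ5 code for Kv7 channels, which carry the slow, subthreshold M-type current. KCNQ3 had 178, 153 and 151 counts in control, against 488, 459 and 472 in the KO line. The groups stood well apart, with a log2 fold change of 1.49 (SE 0.144, adjusted p = 7.78e-07, edgeR). KCNQ5 had 453, 412 and 405 counts in control, against 464, 435 and 414 in the KO line, with overlapping groups and a log2 fold change of -0.02 (SE 0.126, adjusted p = 0.931, edgeR). Its sign turned with the library left out, between -0.085 and 0.039. Per kilobase, KCNQ3 went from 0.581 to 1.64 CPM and KCNQ5 from 2.56 to 2.53 CPM, so KCNQ5 kept the higher level in both groups. KCNQ1 had at most 3 counts in a library.

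KCND1, KCND2 and KCND3 code for Kv4 channels, which carry the transient A-type current. KCND1 had 36, 70 and 58 counts in control, against 9, 21 and 15 in the KO line, with no overlap. Its log2 fold change was -1.93 (SE 0.430, adjusted p = 0.00205, edgeR). KCND1 lies on chromosome X, where the median of tested genes was 0.32, and the median within 2 Mb of it was 0.40. Its fall thus stood beside neighbours with a higher level in the KO line. KCNH7, KCNJ3 and KCNE4 fell on chromosome 2, where the median of tested genes was -0.24. Within 2 Mb the median was -0.18, -0.445 and -0.05 around these genes. Around KCNS3, which rose on the same chromosome, it was -0.405. Any part of such regional differences in the changes was not tested. KCND2 had 59, 34 and 28 counts in control, against 17, 30 and 23 in the KO line, a log2 fold change of -0.86 that did not pass the test (adjusted p = 0.122, edgeR). KCND3, under the filter, had 8, 9 and 9 counts in control, against 0, 2 and 1 in the KO line, a ratio of counts of 9.07 with an exact 95% interval for counting error of 2.78 to 46.8. KCNC4, the Kv3.4 channel, was another tested alpha subunit, at a log2 fold change of 0.33 (adjusted p = 0.416, edgeR). None of the 8 Kv1 genes (KCNA1 to KCNA7 and KCNA10) was tested, and none had more than 7 counts in a library.

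All 13 accessory subunits of voltage-gated channels had counts, and 5 were tested, with a median log2 fold change of -0.01. KCNE4, a single-pass subunit of the MinK-related family known to inhibit Kv1 and Kv7.1 channels, was the only one of the 5 that was called. KCNE4 had 2179, 2305 and 2436 counts in control, against 1121, 1317 and 985 in the KO line. Its level went from 105 ± 4.49 to 49.7 ± 4.68 CPM (SD, n = 3 each), with no overlap, and its log2 fold change was -1.09 (SE 0.0949, adjusted p = 2.89e-07, edgeR). Per kilobase of exon, at 25.6 CPM in control and 12.0 CPM in the KO line, KCNE4 had the highest level of all 96 genes in both groups. No Kv1 gene was tested and KCNQ1 (Kv7.1) had 4 counts in control, against 0 in the KO line, so the channels named here as its partners were near or at the detection limit. The other MinK-related genes, KCNE1, KCNE1B, KCNE2, KCNE3 and KCNE5, had at most 10 counts in a library. KCNAB2, a cytoplasmic Kv beta subunit, had 641, 749 and 683 counts in control, against 935, 1182 and 825 in the KO line. It was higher in every KO library, with a log2 fold change of 0.43 (adjusted p = 0.00801, edgeR), which rose to an adjusted p of 0.0750 in 1 fit that left out a library. KCNAB1, another Kv beta subunit, was at 0.36 (adjusted p = 0.310, edgeR). The Kv4-binding KChIP genes KCNIP3 and KCNIP4 were at -0.01 and -0.30 (adjusted p = 0.982 and 0.628, edgeR).

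**Figure D3:**
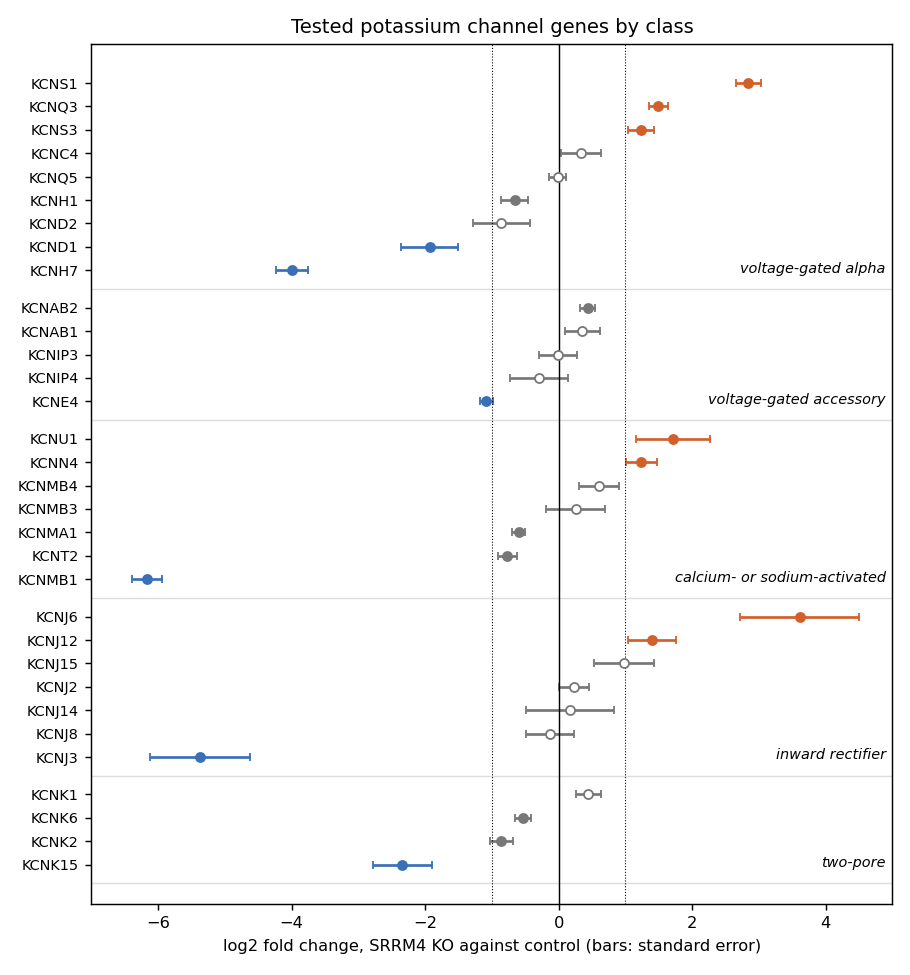
Log2 fold change of SRRM4 KO against control for 32 of the 33 tested genes, by class, with bars of 1 standard error and dotted lines at -1 and 1. Orange marks genes called higher, blue genes called lower, filled grey an adjusted p under 0.05 within the threshold, and open symbols no significant difference. KCNMB1 is at -6.17 and KCNJ6 at 3.61, and each class spans both sides of 0.

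The BK channel lost most of the RNA of its beta1 subunit in the KO line and much less of its pore. KCNMB1 codes for beta1, which raises the apparent calcium sensitivity of the channel and is best known from smooth muscle. KCNMB1 (ENSG00000145936, chromosome 5, 170374671 to 170389677, minus strand) had 827, 1096 and 1065 counts in control, against 10, 12 and 21 in the KO line. All 3 KO libraries were near the bottom of the range, with 45.5 ± 6.61 CPM in control and 0.631 ± 0.280 CPM in the KO line (SD, n = 3 each). The log2 fold change was -6.17 (SE 0.223, adjusted p = 3.51e-11, edgeR). KCNMA1, which codes for the pore-forming subunit, had 2672, 2364 and 2322 counts in control, against 1531, 1838 and 1721 in the KO line. It was lower in every KO library, with a log2 fold change of -0.60 (SE 0.0937, adjusted p = 0.000105, edgeR). For each 100 KCNMA1 counts there were 31.0, 46.4 and 45.9 KCNMB1 counts in control, against 0.653, 0.653 and 1.22 in the KO line. These ratios did not overlap. The smallest two-sided p that an exact permutation test allows with 3 libraries a group is 0.10.

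No fall was called in the other beta subunits. KCNMB4, beta4 of neuronal BK channels, had 48, 40 and 45 counts in control, against 64, 59 and 88 in the KO line, a log2 fold change of 0.61 that did not pass the test (adjusted p = 0.118, edgeR). KCNMB3 was at 0.25 (adjusted p = 0.687, edgeR), and 37.9% of its exon bases are shared with PIK3CA on the opposite strand, so its counts are uncertain. KCNMB2 had at most 6 counts in a library. Per kilobase of exon, KCNMB1 exceeded KCNMA1 in control, at 7.49 against 3.15 CPM, and was under it in the KO line, at 0.104 against 2.08 CPM. KCNMB4 per kilobase was 0.416 CPM in control and 0.635 CPM in the KO line. Beside KCNMB1, the smooth muscle markers ACTA2, CNN1 and MYOCD were also called lower, with log2 fold changes of -3.26, -2.10 and -2.03, while MYH11 did not pass the test, at -1.27 (adjusted p = 0.101, edgeR). Their part in the result was not tested. KCNMB1 lies within the locus of KCNIP1, on the opposite strand and with no shared exon bases. KCNIP1 had 9, 5 and 5 counts in control, against 4, 11 and 25 in the KO line. The median log2 fold change of 16 tested genes within 2 Mb of KCNMB1 was -0.03.

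**Figure D4:**
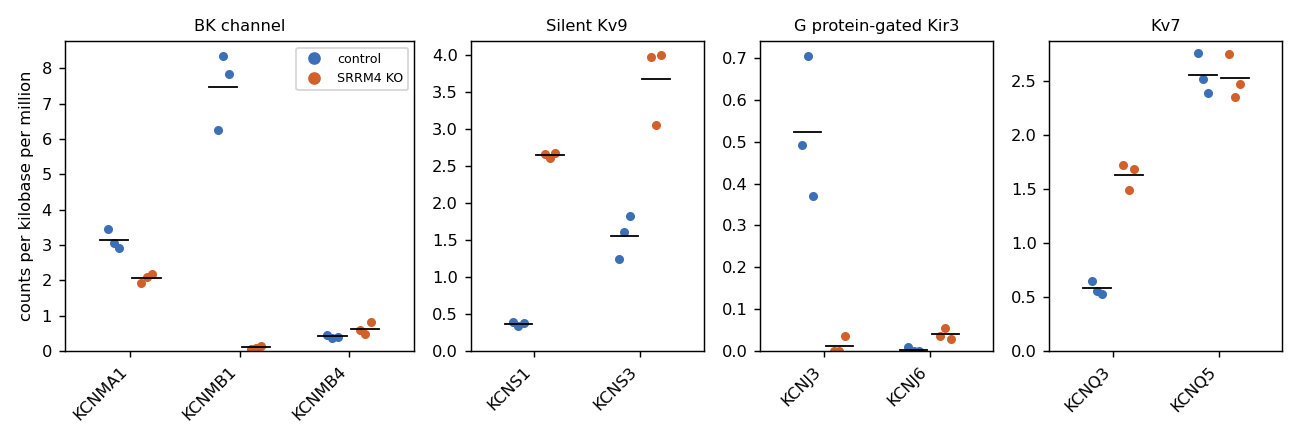
CPM per kilobase of exon in each library for 4 groups of channels whose subunits co-assemble or belong to 1 family, with a line at the mean of 3 libraries and vertical axes that start at 0 and differ in scale. KCNMB1 nearly disappears beside KCNMA1, KCNS1 and KCNS3 rise, KCNJ3 falls while KCNJ6 rises to a low level, and KCNQ3 rises beside a level KCNQ5.

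KCNN4 codes for the intermediate-conductance channel KCa3.1, which opens with calcium bound to calmodulin. KCNN4 had 59, 134 and 115 counts in control, against 272, 236 and 251 in the KO line. All KO libraries were higher than all control libraries, and Control 1 was the lowest of the 6. The log2 fold change was 1.24 (SE 0.238, adjusted p = 0.000649, edgeR). Without Control 1 it was 0.96, short of the threshold. The small-conductance channels KCNN1, KCNN2 and KCNN3 were not tested. KCNN3 had 2, 16 and 0 counts in control, against 1, 0 and 0 in the KO line, so its control counts came almost wholly from 1 library. KCNT2, a sodium-activated channel, had 827, 590 and 650 counts in control, against 444, 396 and 428 in the KO line, with no overlap and a log2 fold change of -0.77 (SE 0.142, adjusted p = 0.000488, edgeR). KCNU1, the sperm channel SLO3, which is gated by pH and is placed in this class for its relation to the BK channel, had 7, 7 and 6 counts in control, against 30, 27 and 13 in the KO line. Its log2 fold change was 1.72 (SE 0.553, adjusted p = 0.0210, edgeR), but in 5 of the 6 fits that left out a library it did not pass, with an adjusted p up to 0.109. Over the 7 tested genes of the class, 2 were called higher and 1 lower, with a median log2 fold change of 0.25. Summed over the class, the level was 189 to 206 CPM in control and 107 to 116 CPM in the KO line, and KCNMA1 and KCNMB1 made up most of the sum in control.

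Of 16 inward rectifiers, 7 were tested, 2 were called higher and 1 lower, all at low counts, with a median log2 fold change of 0.23. KCNJ3 and KCNJ6 code for GIRK1 and GIRK2, which G protein beta-gamma subunits open. GIRK1 needs a partner such as GIRK2 to reach the membrane, whereas GIRK2 can form channels alone. KCNJ3 had 54, 77 and 42 counts in control, against 0, 0 and 4 in the KO line. All its KO counts came from KO 3, and the ratio of counts was 45.3 in favour of control, with an exact 95% interval for counting error of 17.4 to 168. The fitted log2 fold change was -5.37 (SE 0.752, adjusted p = 3.69e-05, edgeR). Without KO 3 no counts were left in the KO group, and against 3 counts per library KCNJ3 was at least 20.5-fold lower. KCNJ6 had 4, 0 and 0 counts in control, against 16, 27 and 13 in the KO line. The ratio was 13.4 in favour of the KO line, with an exact 95% interval of 4.94 to 50.8, and the fitted log2 fold change was 3.61 (SE 0.893, adjusted p = 0.00432, edgeR). All control counts came from Control 1, and without it KCNJ6 was at least 5.89-fold higher against 3 counts per library. KCNJ5 and KCNJ9, the other GIRK genes, had 6 counts and none over all 6 libraries. In the windows above, KCNJ3 shares 41 of 54 bases with KCNJ6 and 40 with KCNJ12.

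KCNJ12 and KCNJ2 code for Kir2.2 and Kir2.1, strong rectifiers that stabilize the resting potential. KCNJ12 had 30, 20 and 17 counts in control, against 54, 69 and 63 in the KO line, with no overlap and a log2 fold change of 1.40 (SE 0.354, adjusted p = 0.00505, edgeR). Its pore window is identical to that of KCNJ18, a near-identical copy, which was listed at 0 in all libraries, so how reads were divided between them is uncertain. KCNJ2 had 93, 66 and 96 counts in control, against 103, 118 and 92 in the KO line, with overlapping groups and a log2 fold change of 0.23 (SE 0.224, adjusted p = 0.449, edgeR). KCNJ8, the pore of the vascular ATP-sensitive channel (Kir6.1), had 59, 30 and 36 counts in control, against 43, 37 and 39 in the KO line. Its log2 fold change of -0.13 did not pass the test (adjusted p = 0.801, edgeR). KCNJ15 (Kir4.2) was at 0.98 (adjusted p = 0.0986, edgeR) and KCNJ14 (Kir2.4) at 0.17 (adjusted p = 0.865, edgeR). Without Control 3, KCNJ15 passed at 1.42 (adjusted p = 0.0453, edgeR).

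Only 4 of 15 two-pore genes were tested, and 7 had no count. The median log2 fold change was -0.70. KCNK15 (TASK-5) codes for a subunit not known to form a working channel by itself. KCNK15 had 41, 64 and 75 counts in control, against 7, 20 and 10 in the KO line, a log2 fold change of -2.35 (SE 0.442, adjusted p = 0.000549, edgeR). The groups did not overlap, but 19.5% of its exon bases are shared with RIMS4 on the opposite strand, which had 249 counts in control, against 0 in the KO line. The libraries were not stranded, so reads from the shared bases cannot be told apart. KCNK2 (TREK-1), opened by stretch and lipids, had 384, 343 and 361 counts in control, against 255, 171 and 199 in the KO line. It was lower in every KO library, with a log2 fold change of -0.86 (SE 0.170, adjusted p = 0.000835, edgeR), and without KO 1 it was called at -1.05. KCNK6 (TWIK-2) had 749, 873 and 918 counts in control, against 569, 742 and 531 in the KO line, with a log2 fold change of -0.54 (SE 0.120, adjusted p = 0.00220, edgeR). KCNK1 (TWIK-1) had 94, 102 and 112 counts in control, against 124, 181 and 136 in the KO line, and its 0.45 did not pass the test (adjusted p = 0.0793, edgeR). Per kilobase of exon, KCNK6 and KCNK2 were the most abundant of the class, at 6.27 and 4.24 CPM in control and 4.33 and 2.34 CPM in the KO line. The summed level of two-pore genes was 58.7 to 66.3 CPM in control and 40.3 to 45.7 CPM in the KO line.

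Over all 96 genes the summed level was 486, 492 and 478 CPM in control and 342, 347 and 335 CPM in the KO line. The sums did not overlap. The voltage-gated accessory subunits, the calcium- or sodium-activated class and the two-pore class were lower in all 3 KO libraries than in any control library. The inward rectifiers were at 9.78 to 12.0 CPM in control and 11.8 to 12.3 CPM in the KO line, and the highest control sum of the voltage-gated alpha subunits, 70.9 CPM, lay just under the lowest KO sum, 71.1 CPM. Between group means, the largest falls in CPM were those of KCNE4, KCNMB1 and KCNMA1. A sum of CPM weights long and abundant genes, and it was given no test.

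**Figure D5:**
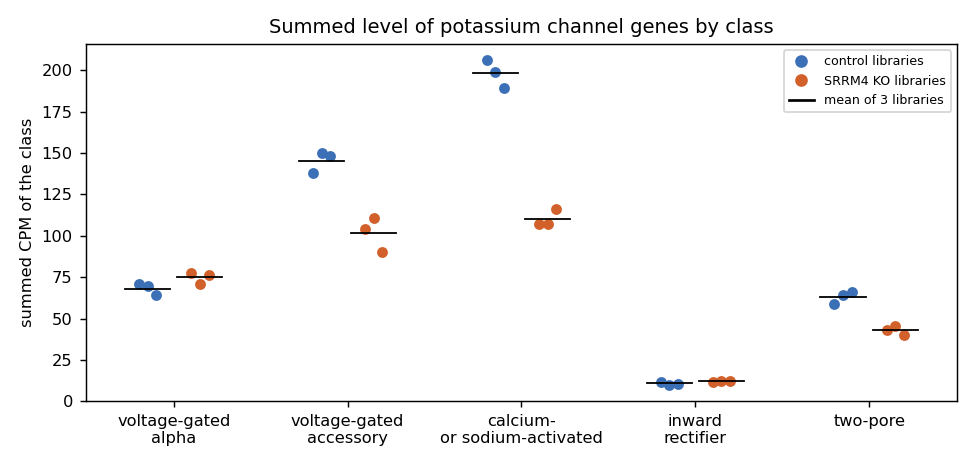
Summed CPM of each class of potassium channel genes in each library, with control and SRRM4 KO libraries side by side and a line at the mean of 3 libraries. The calcium- or sodium-activated class goes from 189 to 206 CPM down to 107 to 116 CPM, whereas voltage-gated alpha subunits and inward rectifiers stay near their control sums.

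The 37 genes under the filter had at most 25 counts in a library, reached by KCNIP1 in KO 3, and were not called in either direction. At 3 counts per library the limit was 0.123 to 0.139 CPM, so a difference in the 26 genes with no count was not detectable at this depth. Of the 33 tested genes, 13 did not pass the adjusted p, with log2 fold changes from -0.86 to 0.98. A p that misses the threshold does not show that these genes were equal. The 5 genes lower at an adjusted p under 0.05 with a smaller fold change were KCNMA1, KCNT2, KCNK2, KCNK6 and KCNH1, and the 1 higher was KCNAB2.

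Genes that work with potassium channels or move potassium by other means were counted as a list of their own. Of 45 such genes, 19 were tested, 1 was called higher and none lower, against 5.45% and 7.14% of all tested genes, with a median log2 fold change of 0.11. The single higher gene among 19 is near the share over all tested genes. At an adjusted p under 0.05 whatever the fold, 8 were higher and 4 lower, against 20.7% and 20.9% of all tested genes. With DESeq2 as well, none was called lower. The sodium/potassium pump genes ATP1B1, ATP1B3 and FXYD5 were higher at an adjusted p under 0.05, with log2 fold changes of 0.38, 0.61 and 0.84. The potassium-chloride cotransporter SLC12A4 and the exchanger SLC24A1 were lower, at -0.46 and -0.39 (adjusted p = 0.000628 and 0.0260, edgeR). HCN2, a cation channel opened by hyperpolarization, was at -0.47 (adjusted p = 0.00671, edgeR). ABCC9, the sulfonylurea receptor SUR2 that joins KCNJ8 in vascular ATP-sensitive channels, had 190, 146 and 121 counts in control, against 343, 271 and 290 in the KO line. It was higher in every KO library, at 0.92 (SE 0.190, adjusted p = 0.00116, edgeR), beside KCNJ8 at -0.13, and passed the fold threshold without Control 1 or without KO 2. ABCC8, the receptor SUR1, had no counts. Calmodulin genes CALM2 and CALM3, whose protein is the calcium sensor of KCNN4, were at 0.26 and 0.60 (adjusted p = 0.00997 and 8.42e-05, edgeR).

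Other ion channel families were counted with the same thresholds, under which 5.45% of all tested genes were called higher and 7.14% lower. With 6 to 11 genes tested in each family, these counts are a description only. Of 14 voltage-gated sodium channel genes, 9 were tested, 2 called higher and 2 lower, with a median log2 fold change of 0.08. Of 22 voltage-gated calcium channel genes, 6 were tested and 2 called lower, with a median of -0.39. Of 21 transient receptor potential genes, 11 were tested, 2 called higher and 3 lower, with a median of -0.45. Of 9 voltage-dependent chloride channel genes, 6 were tested, with a median of 0.04. These families were not tested against the potassium channel genes.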

How the data were processed

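Messenger RNA of 3 control and 3 SRRM4 KO libraries of UE7T-9 cells was sequenced without strand information. The authors deposited unnormalized read counts for each gene. Per the labels, the processing notes name HISAT2 2.0.5, featureCounts 1.5.0-p3 and DESeq2. The treatment of reads that match several genes is not given in the sources used here. Samples were grouped by title and genotype, and no column was left unassigned.

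The 96 genes were found in GENCODE release 29 (GRCh38) with identical coordinates, and exon lengths and coding sequences came from it. Their classes follow the symbols. The members and the gene lists (partner genes, other ion channel families and markers) were chosen with earlier results of these data known.

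All genes were fitted in edgeR 4.0.16 (R 4.3.3) by the quasi-likelihood test after filterByExpr and TMM normalization, with Benjamini-Hochberg adjustment and 0.125 as prior count. CPM use TMM-scaled library sizes. Standard errors are the log2 fold change divided by the root of F. Ratios of low counts have exact 95% intervals. Named were SRRM4, every called gene, the 4 genes of highest level per kilobase in each class, genes with an adjusted p under 0.05, the 3 of highest level above it, and among partner genes the called ones, the pump genes and sulfonylurea receptors tested. The other genes given were named after their values were seen. The procedure was tested on simulated data. The alternatives tried were upper-quartile normalization or DESeq2 size factors, DESeq2 1.42.0 in place of edgeR, a filter of 10 counts in every library or none, glmTreat or no fold threshold, a replicate block, each library left out, and protein-coding genes only. Other assays of the study were not analysed here. Some genes of these lists are not reported here.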

Additional observations from a re-analysis of the deposited data

How the results depend on the processing

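The 7 higher and 7 lower potassium channel genes were the same genes with DESeq2 size factors, upper-quartile normalization, DESeq2, and protein-coding genes only. A test against the fold change threshold called 3 higher (KCNS1, KCNQ3 and KCNJ6) and 5 lower, with KCND1 and KCNE4 lost among the lower genes. With at least 10 counts in every library, 4 were lower, because KCND1, KCNJ3 and KCNK15 were no longer tested, and 5 were higher. Without the fold threshold, 12 were lower. Leaving out each library gave 5 to 7 higher and 7 to 9 lower genes. KCNU1 lost its call in 5 of these 6 fits, KCNN4 without Control 1, and KCNK2 was gained among lower genes without KO 1. The sign turned with the library left out for KCNIP3 (-0.23 to 0.13), KCNJ14 (-0.15 to 0.96), KCNJ8 (-0.32 to 0.21) and KCNQ5 (-0.085 to 0.039), none of which passed the test. Of the partner genes, 8 were higher and 4 lower without the fold threshold, 1 was lower with no filter (ATP1B2), and 1 to 2 were higher with a library left out. The cause of these shifts was not tested, except where fewer genes were tested.

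Same-numbered control and KO libraries deviated together with r = -0.0546, 0.0831 and -0.0529 across genes, other pairs with -0.114 to 0.158. The labels give no pairing beyond the number. These correlations cannot decide whether same-numbered libraries were handled together. With a replicate block, the same 7 higher and 7 lower potassium channel genes, 1 higher and 0 lower partner genes were called. Counts near 3 per library, 0.123 to 0.139 CPM, limit what can be said of the potassium channel genes not tested.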
